A study of Mus musculus with 12 samples.

Results

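Complement components and receptors were followed in the *Tpp1*-deficient mouse brain through 9 genes, chosen by name from the 52459 genes counted in each library. The 5 components were *C1qa*, *C1qb*, *C1qc*, *C3* and *C4b*, and the 4 receptors were *C3ar1*, *C5ar1*, *Itgam* and *Itgb2*. The mice were a model of late infantile neuronal ceroid lipofuscinosis, a lysosomal storage disease caused by loss of tripeptidyl peptidase 1, and carried a targeted *Tpp1* disruption that was bred from heterozygous parents. Poly(A) RNA of cerebellum (Cb) and of forebrain with midbrain (F/M) was sequenced from *Tpp1*-/- (T) males and from their wild-type (N) male siblings, all at 4 months of age. This gave 12 libraries in 4 groups of 3, named F/M-N, F/M-T, Cb-N and Cb-T, and the labels do not say whether Cb and F/M of a number came from the same mouse. Total counts ranged from 21428379 to 24458189 per library. Levels are given as CPM, counts scaled to the size of each library with TMM factors. A gene was taken as detectable from 3 counts, or 0.121 to 0.139 CPM, a floor for counting error only.

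Complement is a cascade of secreted proteins that tags cells, debris and synapses for removal. In the classical pathway, C1q, built from the A, B and C chains, binds its target and leads to cleavage of C4 and then of C3, whose fragments are recognized by phagocytes through complement receptor 3, the integrin made of the *Itgam* and *Itgb2* products. The small peptides split from C3 and C5 act through G protein-coupled receptors encoded by *C3ar1* and *C5ar1*. In brain, microglia are the main source of C1q and carry most of the receptors, and reactive astrocytes are a known source of C3.

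The targeted gene was examined first. *Tpp1* (chromosome 7, 105744811 to 105752235 in GENCODE for GRCm38) was at 94.3, 88.7 and 87.7 CPM in control F/M against 23.9, 21.8 and 23.3 CPM in F/M-T. In Cb it had 112, 114 and 112 CPM in the N libraries and 28.0, 31.0 and 30.03 CPM in the T libraries. Every T library was below every N library of its area, as the labels say, and reads of the disrupted gene were still counted in T. The areas also fitted their labels. *Pcp2*, a Purkinje cell gene, averaged 248 CPM in Cb-N and 236 in Cb-T against 0.161 CPM in F/M-N and 0.29997 in F/M-T, whereas *Tbr1*, a gene of cortical neurons, averaged 112.9 CPM in F/M-N and 94.8 in F/M-T against 0.910 CPM in Cb-N and 0.712 in Cb-T.

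The Cb-T libraries stood apart in a further respect. Of 16 Hox genes, which mark the hindbrain and spinal cord behind the cerebellum, 10 passed the count filter in Cb. They passed it only through the Cb-T libraries, which fixed the direction of their test, so levels alone are given. The summed level of the 16 genes was 14.9, 14.3 and 14.3 CPM in the Cb-T libraries and 0.488, 0.596 and 0.371 CPM in the Cb-N libraries. The most abundant of them in Cb-T, *Hoxb5*, had no count in Cb-N and 3.20, 2.33 and 2.07 CPM in Cb-T, which is above the detectable level. In the F/M groups the 16 genes summed to 0.0427 CPM in N and 0.0422 CPM in T, and 14 of them were at 0 in each group. Since all 3 Cb-T libraries held these transcripts, no result in Cb could be computed without them, and their part in the complement results was not tested.

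All 9 genes were upregulated in the *Tpp1*-deficient Cb, called in edgeR's quasi-likelihood test at FDR under 0.1 with a change of 1.5-fold or more, limits that 8.54% of the 16382 genes tested there passed as higher in T. Of the 9, *C5ar1* passed the count filter in Cb only through the Cb-T libraries. In F/M, 7 of the 9 genes were upregulated, against 2.63% of 16665 tested genes, and *Itgam* and *C5ar1* were not called. The median log2 fold change was 2.60 in Cb and 1.18 in F/M, beside 0.012 and 0.0078 for all genes tested. Components had larger changes than receptors, with medians of 2.68 and 2.00 in Cb and of 1.18 and 0.76 in F/M, but the ranges overlapped in both areas. In Cb, components spanned 2.42 to 3.53 and receptors 1.24 to 2.81. In F/M, components spanned 1.10 to 1.65 and receptors 0.39 to 1.499. In each area the T libraries were above the N libraries for every one of the 9 genes, a separation that 27.7% of the genes tested in Cb and 13.3% of those tested in F/M also showed. In bulk tissue, a change in the number of cells of a type and a change in RNA per cell cannot be told apart.

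**Figure D1:**
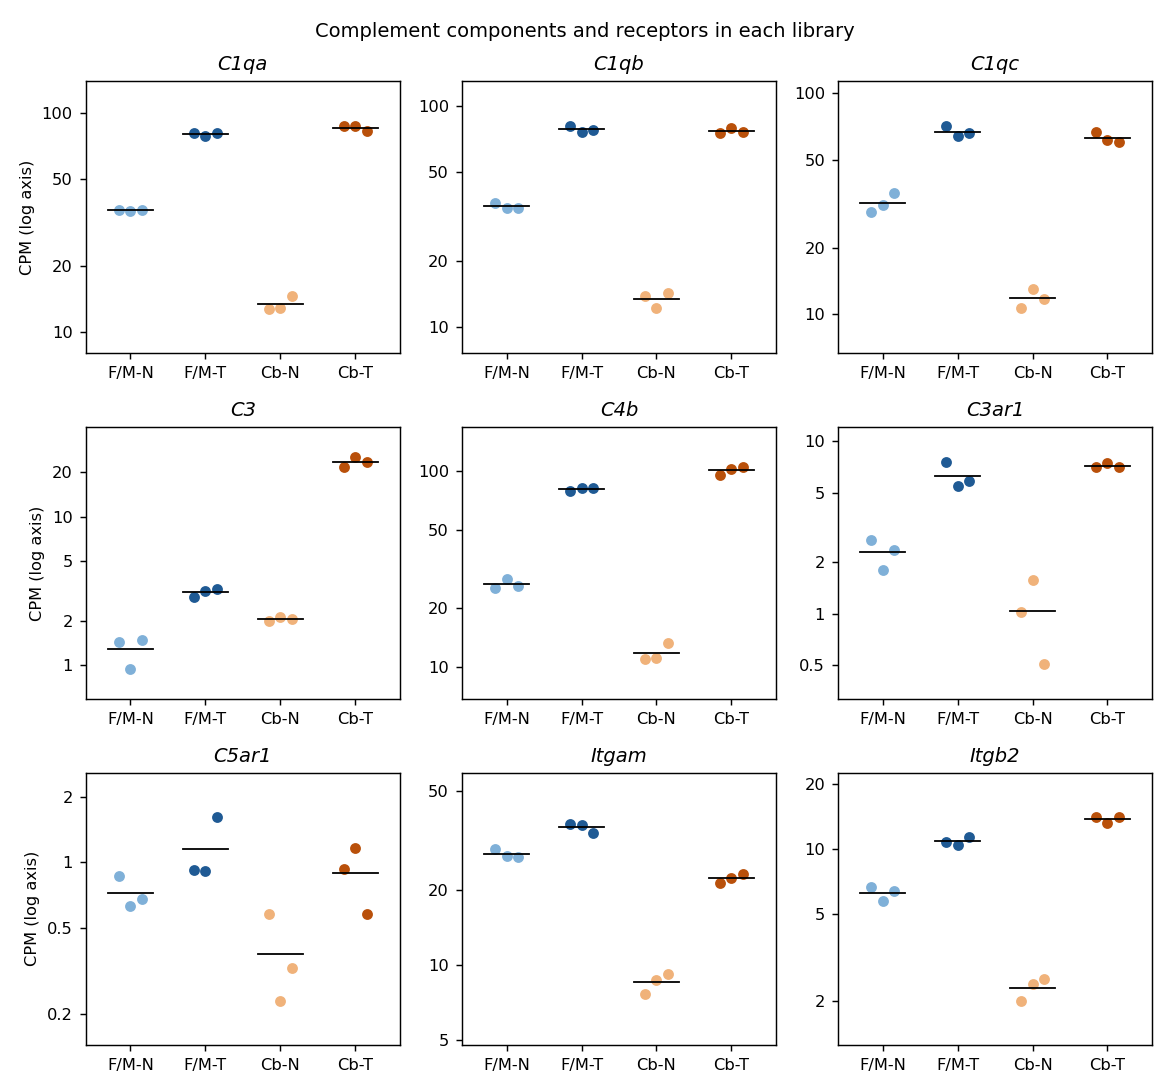
Level of each gene in CPM (log axis, its range set per panel) in the 4 groups. Points are the 3 libraries of a group and lines are their means. *C3* sits at 21.6 to 25.2 CPM in Cb-T against 2.89 to 3.25 CPM in F/M-T, while *Itgam* in Cb-T (21.4 to 23.2 CPM) stays below F/M-N (27.3 to 29.1 CPM).

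The C1q chains are encoded side by side. *C1qb*, *C1qc* and *C1qa* lie on the minus strand of chromosome 4 within 18675 bases (136880129 to 136898803), with 3616 bases between *C1qb* and *C1qc*, 2851 bases between *C1qc* and *C1qa*, and no other annotated gene between them. *C1qa*, the gene of the A chain, had 12.8, 12.9 and 14.7 CPM in Cb-N and 86.7, 87.2 and 82.5 in Cb-T. In F/M it had 36.1, 35.8 and 36.2 CPM in N and 80.6, 78.3 and 80.4 CPM in T. Control cerebellum was therefore the lowest group by a wide margin, and the T groups of both areas reached similar levels. The log2 fold change of *C1qa* was 2.68 (SE 0.051, adjusted p = 1.68e-36, edgeR) in Cb and 1.18 (SE 0.041, adjusted p = 2.65e-14) in F/M.

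*C1qb*, for the B chain, rose from 13.9, 12.2 and 14.2 CPM in Cb-N to 75.0, 79.0 and 75.8 CPM in Cb-T, and from 36.4, 34.7 and 34.5 CPM in F/M-N to 80.6, 75.9 and 77.7 CPM in F/M-T. *C1qc*, for the C chain, rose from 10.6, 13.02 and 11.7 CPM in Cb-N to 66.7, 61.3 and 60.1 CPM in Cb-T, and from 29.1, 31.2 and 35.3 CPM in F/M-N to 70.9, 63.8 and 65.9 CPM in F/M-T. No T library of either gene overlapped an N library of its area, and the Cb-T and F/M-T libraries of both genes overlapped each other. Their log2 fold changes were 2.52 and 2.42 in Cb and 1.18 and 1.10 in F/M. The ratio of *C1qa* to *C1qb* counts averaged 1.02 ± 0.029 (SD, n = 3) in F/M-N, 1.02 ± 0.019 in F/M-T, 1.00 ± 0.069 in Cb-N and 1.12 ± 0.036 in Cb-T. The ratio of *C1qa* to *C1qc* averaged 1.14 ± 0.106 in F/M-N, 1.19 ± 0.051 in F/M-T, 1.15 ± 0.139 in Cb-N and 1.36 ± 0.061 in Cb-T. In Cb the T libraries all had higher values of both ratios than the N libraries, and the two-sided exact permutation p was 0.1 for each, the smallest that 3 against 3 libraries can give. Over the 12 libraries, the centered log2 CPM of *C1qa* and *C1qb* differed by a root mean square of 0.078, and that of *C1qa* and *C1qc* by 0.146.

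*C4b*, the complement component cleaved after C1q binds, had 10.9, 11.05 and 13.2 CPM in Cb-N and 94.8, 102 and 105 in Cb-T. In F/M it had 25.3, 28.0 and 25.9 CPM in N and 79.2, 81.9 and 81.3 CPM in T. The 4 groups did not overlap, with Cb-N lowest and Cb-T highest. The log2 fold change was 3.11 (SE 0.055, adjusted p = 1.14e-37, edgeR) in Cb and 1.65 (SE 0.046, adjusted p = 1.36e-15) in F/M, the largest of the 9 genes in F/M. *C4b* rose more than *C1qa* in both areas, and the ratio of their counts went from 0.870 ± 0.028 (SD, n = 3) in Cb-N to 1.18 ± 0.088 in Cb-T and from 0.733 ± 0.044 in control F/M to 1.01 ± 0.032 in F/M-T, without overlap of the libraries (exact permutation p = 0.1 in each area, the smallest possible).

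*C4b* (chromosome 17, 34728380 to 34743882) has a near-identical neighbor, *C4a* (34809092 to 34823464), and reads that match both genes could have been divided between them or dropped. Of the 5737 stretches of 50 bases, the length of the reads, in the *C4b* transcripts, 34.6% also occur in *C4a* transcripts, so the level of either gene is uncertain. *C4a* was counted at a much lower level and did not rise with *C4b*. It averaged 0.682 CPM in Cb-N, 0.455 CPM in Cb-T, 1.16 CPM in F/M-N and 0.684 in F/M-T, and it was lower in F/M-T by the same limits (log2 fold change -0.73, SE 0.29, adjusted p = 0.0798, edgeR). The ratio of *C4a* to *C4b* counts fell from 0.0583 to 0.00451 in Cb and from 0.0439 to 0.00846 in F/M. With the counts of both genes summed, the log2 fold change was 3.04 in Cb and 1.598 in F/M.

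*C3*, at which the activation pathways of complement meet, was the gene with the largest difference between areas in T and in the genotype effect. It had 2.00, 2.11 and 2.04 CPM in Cb-N and 21.6, 25.2 and 23.3 in Cb-T. In F/M it had 1.43, 0.945 and 1.48 CPM in N and 2.89, 3.15 and 3.25 CPM in T. All Cb-T libraries were far above those of the other 3 groups, and no groups overlapped. The change was 11.5-fold in Cb (log2 fold change 3.53, SE 0.10, adjusted p = 3.04e-29, edgeR) and 2.45-fold in F/M (1.29, SE 0.19, adjusted p = 4.88e-05). *C3* lies on the same chromosome as *C4b* (chromosome 17, 57203970 to 57228136).

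*C3ar1* (chromosome 6, 122847138 to 122856161), the receptor of the C3 peptide, was a low transcript in all groups. It had 1.02, 1.56 and 0.510 CPM in Cb-N and 7.13, 7.45 and 7.04 in Cb-T, against 2.69, 1.80 and 2.33 CPM in F/M-N and 7.57, 5.46 and 5.91 in F/M-T. The T libraries of both areas overlapped each other and were above all N libraries. The log2 fold change was 2.81 (SE 0.18, adjusted p = 1.69e-17, edgeR) in Cb and 1.499 (SE 0.16, adjusted p = 1.09e-06) in F/M.

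*C5ar1* (chromosome 7, 16246743 to 16259540), the receptor of the C5 peptide, was the least abundant of the 9 genes in CPM, with 5 to 38 counts per library. It had 0.577, 0.229 and 0.325 CPM in Cb-N and 0.928, 1.17 and 0.580 in Cb-T, so that Cb-T3 lay only just above Cb-N1. In F/M it had 0.867, 0.630 and 0.677 CPM in N and 0.919, 0.911 and 1.63 CPM in T, where F/M-T3 stood above the others. The log2 fold change was 1.24 (SE 0.37, adjusted p = 0.00394, edgeR) in Cb and 0.69 (SE 0.30, adjusted p = 0.103) in F/M, where the gene was not called. In Cb *C5ar1* passed the count filter only through the Cb-T libraries. Its call in Cb held in all 15 alternatives that tested it, among them a fit without that filter. With 1 library left out at a time, the log2 fold change in F/M went from 0.364 without F/M-T3 (adjusted p = 0.488) to 0.85 without F/M-T2 (adjusted p = 0.0698).

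*Itgam* (chromosome 7, 128062640 to 128118491) encodes CD11b, the alpha chain of complement receptor 3 and a common microglial marker. It had 7.67, 8.76 and 9.18 CPM in Cb-N and 21.4, 22.3 and 23.2 in Cb-T, and 29.1, 27.4 and 27.3 CPM in F/M-N and 36.9, 36.6 and 34.0 in F/M-T. The T libraries of each area were above its N libraries, yet Cb-T stayed below both F/M groups. The log2 fold change was 1.40 (SE 0.076, adjusted p = 1.18e-19, edgeR) in Cb. In F/M it was 0.39 (SE 0.053, adjusted p = 1.85e-05), a 1.31-fold change under the fold limit, so that without this limit 8 of the 9 genes were higher in F/M-T, beside 12.8% of all genes tested. The later GENCODE gene Gm49368 shares 3450 exon bases with *Itgam* on the same strand, but it is not among the genes of the count tables.

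*Itgb2* (chromosome 10, 77530252 to 77565708) encodes CD18, the beta chain that *Itgam* shares with the other leukocyte integrins. It had 2.00, 2.38 and 2.504 CPM in Cb-N and 14.1, 13.2 and 14.1 in Cb-T, and 6.68, 5.76 and 6.39 CPM in F/M-N and 10.8, 10.5 and 11.3 in F/M-T. The groups did not overlap, and Cb-T was the highest. The log2 fold change was 2.60 (SE 0.11, adjusted p = 3.97e-23, edgeR) in Cb and 0.82 (SE 0.092, adjusted p = 1.84e-06) in F/M. The chains of complement receptor 3 did not rise in proportion. The ratio of *Itgam* to *Itgb2* counts was 3.84, 3.67 and 3.67 in Cb-N and 1.52, 1.69 and 1.64 in Cb-T, and 4.36, 4.76 and 4.26 in F/M-N and 3.42, 3.50 and 3.00 in F/M-T. In both areas each T library had a lower ratio than each N library (exact permutation p = 0.1, the smallest possible).

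Another alpha chain moved the other way relative to *Itgb2*. *Itgax*, which encodes CD11c of complement receptor 4 and lies 11055 bases from *Itgam*, had 0.266, 0.321 and 0.510 CPM in Cb-N and 11.3, 11.7 and 11.6 in Cb-T. In F/M it had 0.0867, 0.135 and 0.296 CPM in N, from 2, 3 and 7 counts, and 6.17, 5.88 and 5.73 CPM in T. Its log2 fold change was 4.98 (SE 0.18) in Cb and 5.08 (SE 0.25) in F/M. *Itgax* passed the count filter only through the T libraries, with 6, 7 and 11 counts in Cb-N. This fixed the direction of both tests, so no p-value is given for them. The interaction of area and genotype was not significant (-0.08, SE 0.50, adjusted p = 0.920, edgeR). With 1 library left out at a time its log2 fold changes were 4.79 to 5.28 for Cb and 4.76 to 5.71 for F/M. The interaction then ranged from -0.712 to 0.235 and was never called. The ratio of *Itgax* to *Itgb2* counts averaged 0.157 in Cb-N and 0.837 in Cb-T, and 0.0276 in F/M-N and 0.546 in F/M-T, without overlap of T and N libraries. In F/M-N the single libraries had 0.0130, 0.0234 and 0.0464, so that this mean depended on F/M-N3.

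**Figure D2:**
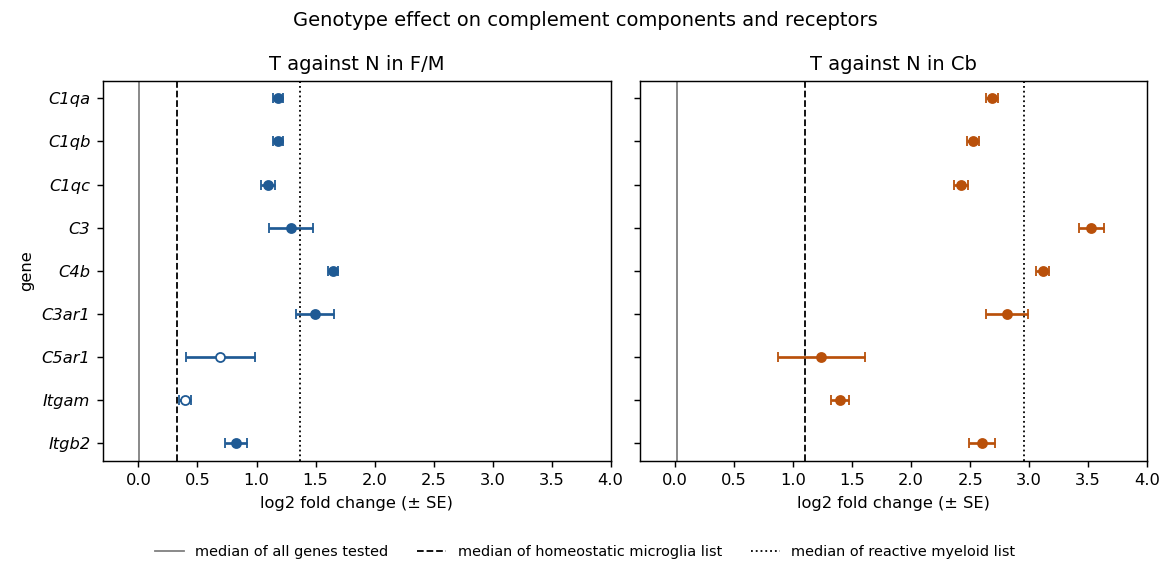
Log2 fold change (T against N) of each gene in F/M and Cb, with bars for the SE of the edgeR fit on 6 libraries. Filled points passed FDR and fold limits, open points did not, and vertical lines mark the median of all genes tested (0.0078 in F/M, 0.012 in Cb), of homeostatic microglia genes (0.32 and 1.10) and of reactive myeloid genes (1.37 and 2.96).

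The difference of the genotype effect between Cb and F/M was tested as the interaction of area and genotype over all 12 libraries. The effect was larger in Cb for 8 of the 9 genes, against 6.41% of 17482 tested genes, and all 9 differences were positive, with a median of 1.36 on the log2 scale. The difference was largest for *C3* (2.25, SE 0.24, adjusted p = 1.52e-08, edgeR), followed by *Itgb2* (1.80, SE 0.15, adjusted p = 8.17e-11) and *C1qa* (1.52, SE 0.067, adjusted p = 4.90e-17). *C5ar1* did not pass (0.56, SE 0.51, adjusted p = 0.479), and its difference ranged from 0.307 to 1.01 with 1 library left out at a time.

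The areas also differed before genotype was considered. Between the wild-type areas, 8 of the 9 genes were lower in Cb-N than in F/M-N, against 22.8% of 16725 tested genes, with log2 differences from -1.71 for *Itgam* to -0.93 for *C5ar1*. *C3* alone was higher in Cb-N (log2 difference 0.66, SE 0.21, adjusted p = 0.00725, edgeR), as were 19.2% of the genes tested, and without F/M-N2 its difference was 0.48, under the fold limit. The call of *C5ar1*, which passed the count filter here only through the F/M-N libraries, was lost without F/M-N1 (adjusted p = 0.101) or without Cb-N2 (adjusted p = 0.128). Between the *Tpp1*-deficient areas, only *C3* was called higher in Cb-T (2.90, SE 0.094, adjusted p = 3.63e-30) and only *Itgam* lower (-0.71, SE 0.054, adjusted p = 4.35e-16), where 16.1% and 19.3% of 16943 tested genes were called higher and lower. The other 7 genes differed between Cb-T and F/M-T by -0.38 to 0.32 on the log2 scale and were not called. Of these, *C5ar1* depended on single libraries, with a difference of -0.63 without Cb-T2 (adjusted p = 0.0906), which passed, and of -0.0606 without F/M-T3 (adjusted p = 0.876).

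Levels of different genes were compared per kb of exon, with merged exon lengths of GENCODE, which need not be the annotation the authors counted with. *C1qa* and *C1qb* were the highest in every group, at 12.9 and 12.4 CPM per kb in Cb-N and 82.2 and 70.4 CPM per kb in Cb-T, and *C1qc* followed at 6.11 and 32.5 CPM per kb. Only in Cb-N did the libraries of *C1qa* and *C1qb* overlap. *C4b* had 2.06 CPM per kb in Cb-N and 17.6 CPM per kb in Cb-T. The lower part of the order changed with genotype. In Cb-N, *Itgam* (1.70 CPM per kb) was above *Itgb2* (0.752) and *C3* (0.398), whereas in Cb-T the libraries of *C3* (4.55), *Itgb2* (4.52) and *Itgam* (4.44) overlapped. In F/M-T, *Itgam* (7.14 CPM per kb) remained above *Itgb2* (3.56), and *C3* (0.602) was among the lowest, with libraries that overlapped those of *C5ar1* (0.448). In F/M-N, *C5ar1* (0.282 CPM per kb) and *C3* (0.250) overlapped, and in Cb-N so did *C3ar1* (0.239) and *C5ar1* (0.147).

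**Figure D3:**
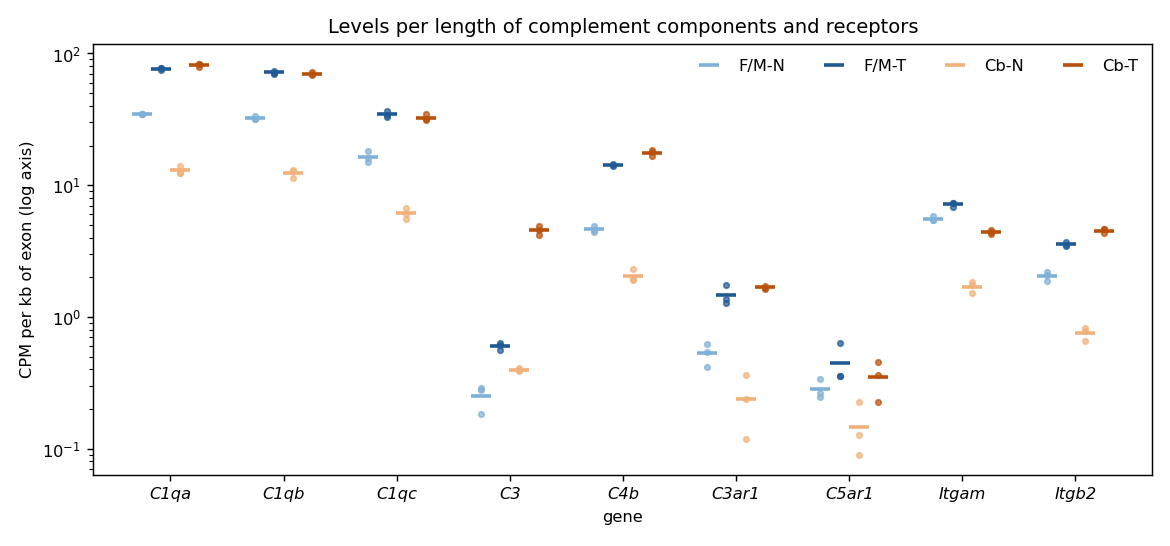
Level of each gene per kb of merged exon (CPM per kb, log axis) in the 4 groups, with points for libraries and bars for means. *C1qa* and *C1qb* lie highest in each group, and *C3* moves from 0.398 CPM per kb in Cb-N to 4.55 CPM per kb in Cb-T.

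The other genes of the complement system were examined in the same way. Of 47 further genes, 27 could be tested in Cb, where 5 were upregulated (8.54% of all genes), 2 were downregulated (2.66% of all genes tested were lower) and 20 were not called, with a median log2 fold change of 0.11. In F/M, 30 could be tested, 2 were upregulated (2.63% of all genes), 1 was downregulated (0.858% of all genes) and 27 were not called, with a median of 0.061. Besides *Itgax*, the genes upregulated in Cb were the regulators *Clu* and *Srpx2*, the classical pathway protease precursor *C2* and the lectin *Colec11*. *Clu*, an inhibitor of the terminal complex made by astrocytes, was by far the most abundant of them, with 469, 466 and 476 CPM in Cb-N and 764, 772 and 785 in Cb-T (log2 fold change 0.73, SE 0.022, adjusted p = 8.33e-29, edgeR). *C2* had a log2 fold change of 0.63 (SE 0.28, adjusted p = 0.0526) and *Colec11* of 0.93 (SE 0.44, adjusted p = 0.0702), with overlapping libraries for *Colec11*. *Colec11* and *Itgax* were also upregulated in F/M, *Colec11* by 1.05 (SE 0.41), and *C4a* was the gene downregulated there. *Itgax* in both areas, *Srpx2* in Cb and *Colec11* in F/M passed the count filter only through the T libraries. This fixed the direction of those tests.

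Downregulated in Cb were *Cfp* and *Masp2*. *Cfp* encodes properdin, which stabilizes the C3 convertase of the alternative pathway, and it had 26.2, 25.7 and 25.1 CPM in Cb-N and 15.8, 17.5 and 14.6 in Cb-T (log2 fold change -0.67, SE 0.064, adjusted p = 4.87e-12, edgeR). It was the only alternative pathway gene of the list that could be tested, of 3, and in F/M its log2 fold change was -0.18, which was not called. *Masp2*, a protease of the lectin pathway, averaged 0.848 CPM in Cb-N and 0.455 in Cb-T (log2 fold change -0.88, SE 0.33). In Cb it passed the count filter only through the N libraries, which fixed the direction of its test there. None of the terminal pathway genes was called, with 2 of 7 tested in Cb and 3 of 7 in F/M. Of 17 regulators, 12 were tested in Cb with 2 higher, and 13 were tested in F/M with none called. *Mbl1*, *Cfd* and *Cpn2* had no count in any library. In the test of the difference between areas, the change of *Srpx2* was higher in Cb than in F/M and that of *Masp2* lower, while 28 of the 30 genes tested were not called (1.2% of all genes were called lower).

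Microglia express most of these genes, and lists of microglial markers moved in the same comparisons. By cell type, the paper placed *C4b* with genes of astrocytes and *C3* with genes of activated microglia. Of 12 homeostatic microglia genes, 9 were upregulated in Cb and 2 in F/M, beside 8.54% and 2.63% of all genes tested. Their median log2 fold changes were 1.10 and 0.32, and in F/M the single genes ranged from -0.064 to 1.009. Their summed level was 158, 158 and 165 CPM in Cb-N, 401, 409 and 417 in Cb-T, 473, 461 and 481 in F/M-N and 587, 595 and 594 in F/M-T. Of 10 reactive myeloid genes, all 10 were upregulated in Cb and 9 in F/M, beside the same shares of all genes, with medians of 2.96 and 1.37. Among them, *Cst7*, *Clec7a* and *Cd52* passed the count filter only through the T libraries in both areas. The direction of their tests was thus fixed, and the counts and medians include them. They summed to 54.0, 53.9 and 53.3 CPM in Cb-N, 309, 316 and 311 in Cb-T, 119, 127 and 127 in F/M-N and 296, 282 and 288 in F/M-T, with *Ctss* the most abundant. No gene of these lists was at 0 in a group. In both areas all 9 complement genes were above the homeostatic median and 2 of the 9 were above the reactive median, *C3* and *C4b* in Cb and *C4b* and *C3ar1* in F/M. *Itgam* and *C5ar1* lay closest to the homeostatic genes, 0.30 and 0.14 above their median in Cb and 0.069 and 0.37 above it in F/M. The part of these markers in the complement results was not tested.

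Astrocyte markers moved as well. Of 10 reactive astrocyte genes, 8 were upregulated in Cb, as were 5 of the 9 tested in F/M, beside 8.54% and 2.63% of all genes tested. Their medians were 1.85 and 0.68. In Cb *Lcn2* and *Timp1*, and in F/M *Timp1* and *Steap4*, passed the count filter only through the T libraries, which fixed the direction of their tests. They summed to 398, 402 and 405 CPM in Cb-N, 1521, 1508 and 1515 in Cb-T, 284, 285 and 295 in F/M-N and 768, 754 and 775 in F/M-T, and *Gfap* had the highest mean over all libraries. Of 10 general astrocyte genes, only *Aqp4* was called in Cb and none in F/M, with medians of 0.27 and 0.18, and *Slc1a2* had the highest mean over all libraries. At the FDR limit alone, 9 of them were higher and 1 lower in Cb, where 29.8% and 27.9% of all genes tested were higher and lower, and 8 were higher in F/M, beside 12.8% of all genes. The part of these markers was not tested.

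Markers of other cells were examined as well. Of 9 genes of border macrophages and monocytes, 6 could be tested. *Mrc1*, *Ms4a7* and *Pf4* were upregulated in Cb and *Ms4a7* in F/M, beside 8.54% and 2.63% of all genes tested. *Ms4a7* in both areas and *Pf4* in Cb passed the count filter only through the T libraries, which fixed the direction of their tests. The list summed to 8.61, 8.07 and 8.12 CPM in Cb-N, 11.98, 12.4 and 11.6 in Cb-T, 13.1, 11.1 and 12.4 in F/M-N and 14.5, 13.6 and 13.1 in F/M-T, with *Mrc1* the most abundant. Neutrophil genes were at low levels, with means of the summed list of 4.31 CPM in Cb-N, 3.33 CPM in Cb-T, 1.93 CPM in F/M-N and 1.45 in F/M-T. *Ltf* was the called gene of that list, lower in Cb, *S100a9* was its most abundant gene, and *Ly6g* had no count in F/M-T. In Cb *Ltf* passed the count filter only through the N libraries, which fixed the direction of its test. Of 9 lymphocyte genes, none could be tested in Cb and 1 in F/M, which was not called, and their sum of 0.6995 CPM in Cb-N and 1.35 in Cb-T compared with 8.46 CPM in F/M-N and 9.41 in F/M-T, where *Cd4* made up 7.87 and 8.56 CPM.

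Of 8 oligodendrocyte genes, none was called in either area, although all 8 were higher in Cb-T at the FDR limit alone (29.8% of all genes, median log2 fold change 0.33, most abundant gene *Mbp*). In F/M, 1 of them was higher and 1 lower at that limit (12.8% and 14.4% of all genes), with a median of 0.0024. Of 8 general neuron genes, *Uchl1* was called, higher in Cb, with list medians of -0.046 in Cb and -0.011 in F/M (most abundant gene *Snap25*). At the FDR limit alone, 3 were higher and 4 lower in Cb (29.8% and 27.9% of all genes), and 1 was higher and 3 lower in F/M (12.8% and 14.4% of all genes). No gene of the endothelial list (6 genes, *Flt1* most abundant) or the choroid plexus list (8 genes, *Ttr* most abundant) was called in either area. At the FDR limit alone, with the same shares of all genes, 4 endothelial genes were higher in Cb and 1 in F/M, and of the choroid plexus genes 1 was higher and 3 were lower in Cb and 2 were higher in F/M. Of 5 erythrocyte genes, led by *Hbb-bs*, *Alas2* was called, higher in Cb, and all 5 were higher in T of both areas at the FDR limit alone (29.8% of all genes in Cb, 12.8% in F/M). Of 10 cerebellar neuron genes, with *Cbln3* the highest over all libraries, none was called in Cb, where 8 were lower in T at the FDR limit alone (27.9% of all genes), and *Barhl1* was lower in F/M-T. Of 8 forebrain neuron genes, with *Tbr1* the highest in F/M, 5 could be tested in Cb, where *Drd1* and *Drd2* were higher in T, and none was called in F/M, where 5 were lower and 1 higher in T at the FDR limit alone (14.4% and 12.8% of all genes). The part of these markers in the complement results was not tested.

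The genes whose pattern was most like that of a complement gene were sought among 14936 genes other than these 9, by the root mean square difference of centered log2 CPM over the 12 libraries. For *C1qa* these were *Mpeg1* (0.131), *Trem2* (0.132) and *Ctss* (0.154), and for *C4b* they were *Tyrobp* (0.159), *Mpeg1* (0.185) and *Cd68* (0.204). For *Itgam* they were *Cx3cr1* (0.1001), *Inpp5d* (0.121) and *Csf1r* (0.123), of which *Cx3cr1* and *Csf1r* belong to the homeostatic list. *C3* had no gene as close. Its nearest were *Timp1* (0.395), *Gpnmb* (0.416) and *Dbh* (0.521), and *C3* differed from the other 8 complement genes by 1.13 (*C4b*) to 1.69 (*Itgam*). *Timp1*, an inhibitor of matrix metalloproteinases that is in the reactive astrocyte list, had means of 0.457 CPM in Cb-N, 4.35 CPM in Cb-T, 0.204 CPM in F/M-N and 0.670 in F/M-T. *Gpnmb* had 3.01 CPM in Cb-N, 32.2 in Cb-T, 2.38 in F/M-N and 8.25 in F/M-T. *Dbh* had 0.654 CPM in Cb-N, 7.99 in Cb-T, 0.390 in F/M-N and 0.424 in F/M-T.

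Bases before the transcription start are shown for *C1qb*, *Itgam* and *C3*. These stand for the C1q chains that rose together, for the gene with *Cx3cr1* as its nearest gene and for the gene that rose most in Cb. RefSeq promoter windows (GRCm38.p6) matched 6 of the 9 genes. In up to 250 bases before the start, searched on both strands, AGGAAG, the core bound by ETS factors such as PU.1, occurred in 4 of these 6 (*C1qb*, *C1qc*, *C5ar1* and *Itgam*) and in 29.5% of 32851 windows, and TTGCNNAA, a motif of C/EBP factors, occurred in *C3* alone and in 9.56% of windows. The motifs were chosen after the sequences had been seen, and a match describes a sequence and shows no binding. Capitals mark the matches.
C1qb, chr4:136886201-136886450, minus strand: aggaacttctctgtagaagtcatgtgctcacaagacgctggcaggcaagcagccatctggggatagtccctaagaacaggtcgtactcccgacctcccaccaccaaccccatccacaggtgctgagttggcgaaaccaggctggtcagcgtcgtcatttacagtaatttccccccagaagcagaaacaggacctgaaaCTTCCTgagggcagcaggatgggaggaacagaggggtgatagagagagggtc
Itgam, chr7:128062390-128062639, plus strand: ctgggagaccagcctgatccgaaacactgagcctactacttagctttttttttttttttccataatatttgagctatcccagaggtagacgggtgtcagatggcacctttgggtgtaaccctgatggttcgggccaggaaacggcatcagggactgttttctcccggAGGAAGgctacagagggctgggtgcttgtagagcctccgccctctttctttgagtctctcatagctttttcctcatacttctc
C3, chr17:57228137-57228386, minus strand: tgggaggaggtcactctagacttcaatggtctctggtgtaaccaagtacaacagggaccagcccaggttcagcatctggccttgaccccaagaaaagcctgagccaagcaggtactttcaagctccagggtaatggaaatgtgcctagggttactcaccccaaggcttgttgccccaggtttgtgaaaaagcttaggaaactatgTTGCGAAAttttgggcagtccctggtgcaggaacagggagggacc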

How the data were processed

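The deposited values were raw counts per gene for each of the 12 libraries, which the authors made from single-end, stranded poly(A) libraries by alignment to GRCm38 with STAR (2.5.1b in the submitters' processing notes, another version in the paper) and by counting with featureCounts (Rsubread 1.26.1). How strand and reads of several alignments were treated, and which annotation release was used, is not given in the sources used here. Groups and replicate numbers came from the labels, and the labels give separate samples but do not tie each to a mouse, so p-values measure the spread between these samples. The methods text can be read as both areas taken from the same mice. Which libraries would share a mouse is not given in the sources used here, and the tests between areas and of the interaction treat all libraries as independent. Replicate libraries differed by more than sampling noise (chi-square per degree of freedom 1.28 to 3.59 over 12 pairs) and each was counted once.

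Counts were analysed in R 4.3.3. For each comparison of 2 groups, the 6 libraries were filtered with filterByExpr (minimum count 10, minimum total count 15), scaled by TMM and tested across all genes with the quasi-likelihood test of edgeR 4.0.16 and Benjamini-Hochberg adjustment. A gene was called at FDR under 0.1 with a change of 1.5-fold or more. The interaction of area and genotype used all 12 libraries. CPM values were scaled by TMM over all 12 libraries. Ratios were compared by the two-sided exact permutation test over libraries. All 9 complement genes passed each filter, *C5ar1* only through Cb-T for T against N in Cb and only through F/M-N between the control areas. The tests were checked on simulated data.

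Named genes were the 9 complement genes, *Tpp1*, *C4a*, every other complement gene called in T against N in Cb or F/M, the gene of each cell type list with the highest mean over all libraries, with the called genes where 3 or fewer and those at 0 counts, and the 3 genes closest to *C1qa*, *C3*, *C4b* and *Itgam* by the root mean square difference of centered log2 CPM among the other genes with a mean of at least 1 CPM. *Pcp2* was added as a tissue marker after the values had been seen. Some results that fall under these rules are not reported here. The members and lists were chosen with earlier results of these data known. Positions, exon lengths and shared stretches came from GENCODE vM21 and promoters from RefSeq, both of GRCm38. DESeq2 1.42.0, limma-voom (limma 3.58.1), RLE size factors, other filters and limits, a replicate block, one model for all libraries, summed *C4a* and *C4b* counts and leaving out each library were the alternatives.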

Additional observations from a re-analysis of the deposited data

Results flagged for a closer look

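For 10 complement genes the effect of genotype differed between Cb and F/M by the interaction test of edgeR's quasi-likelihood fit over all 12 libraries (Benjamini-Hochberg adjusted). Of the 9 genes followed, 8 were called. Of 30 other complement genes tested, 1 was called higher and 1 lower. Over all 17482 genes tested, 6.41% were called higher and 1.2% lower. Values are the log2 fold change in Cb minus that in F/M, and a positive value means that the T libraries exceeded their controls by more in Cb. Among the C1q chains the differences were close to each other, at 1.52 for *C1qa* (adjusted p = 4.90e-17), 1.36 for *C1qb* (adjusted p = 2.33e-15) and 1.34 for *C1qc* (adjusted p = 3.14e-12). *C4b* differed by 1.49 (adjusted p = 9.77e-15).

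*C3* had the largest difference, 2.25 (adjusted p = 1.52e-08), and it was the member whose Cb-T level also exceeded its F/M-T level by the fold limit. Of the receptor genes, *Itgb2* differed by 1.80 (adjusted p = 8.17e-11), *C3ar1* by 1.33 (adjusted p = 0.000857) and *Itgam* by 1.02 (adjusted p = 4.97e-10). *Srpx2*, with means of 0.515 CPM in Cb-N and 1.16 in Cb-T against 2.62 CPM in F/M-N and 2.20 in F/M-T, differed by 1.40 (adjusted p = 0.00348). *Masp2*, with means of 0.848 CPM in Cb-N and 0.455 in Cb-T against 0.477 CPM in F/M-N and 0.600 in F/M-T, differed by -1.21 (adjusted p = 0.0882), and its F/M libraries overlapped. The causes of these differences were not tested.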

How the results depend on the processing

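The number of complement genes called was 8 to 9 in Cb, 7 to 8 in F/M, 8 for the difference between areas under every alternative and 6 to 9 between the control areas. The lowest numbers in Cb and between the control areas came with a mean count of at least 50, where genes under that limit, among them *C5ar1*, were not tested. Summed counts of *C4a* and *C4b* were run for *C4b* only. Of 763 log2 fold changes of single complement genes under alternatives, 751 kept direction and call, 9 became called and 3 lost the call, and none reversed. Between the *Tpp1*-deficient areas, the number called went from 2 to 6 without the fold limit, where 13104 of all 16943 genes tested were called.

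Counts over all genes moved with the limits. Without the fold limit, 9442 genes were called in Cb, 4541 in F/M, 4816 for the difference between areas, 13459 between the control areas and 13104 between the *Tpp1*-deficient areas. A mean count of at least 50, which leaves fewer genes to test, gave 897, 259 and 877 calls in Cb, in F/M and for the difference. DESeq2 called 365 genes in F/M against 581, and the cause was not tested. Leaving out each library in turn gave 1832 to 1986 calls in Cb, 498 to 632 in F/M, 1237 to 1359 for the difference, 7052 to 7262 between the control areas and 6057 to 6189 between the *Tpp1*-deficient areas.

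With the replicate number as a replicate block, 1834 genes were called in Cb and 607 in F/M, and *C5ar1* was called in F/M (adjusted p = 0.0737). Same-numbered libraries did not deviate together (r from -0.016 to 0.062 over 12 pairs), so the numbers were not treated as pairs. The call of *C5ar1* in F/M was also gained without a filter on low counts (adjusted p = 0.0869), and its adjusted p ranged from 0.0698 to 0.488 over the alternatives. At 5 to 38 counts per library, depth limits what can be said of *C5ar1*. Scaling by library size alone moved 8 of 36 mean levels by more than 1 SD, and 8 complement genes were then called in F/M.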
